A study of Mus musculus with 27 samples.

Results

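Parathyroid hormone at 6 h was compared with no treatment in KUSA4b10 cells, an established line of mouse marrow stromal cells that the series title places in the osteoblast lineage. The 3 arrays labelled PTH at 6 h, from cells given the peptide PTH(1–34) at 10 nM for 6 h, were set against the 3 arrays of untreated cells collected at 6 h, so the comparison uses 6 of the 27 arrays in the series. The other arrays hold untreated cells and cells given either PTH(1–34) at 10 nM or PTHrP(1–141) at 20 nM, in groups of 3 at 1, 6 and 24 h. The labels name no further agent and give 1 cell line throughout, so nothing here speaks of other osteoblast models or of bone. PTHrP at 6 h enters below as a comparator, and ligand, peptide length and dose differ together between the treated groups and cannot be told apart. The title of the series asks about ephrinB2, the product of Efnb2.

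PTH is the hormone that keeps blood calcium up, and osteoblast lineage cells are its main target in bone. It binds the PTH1R receptor, which also binds PTHrP, and the receptor signals chiefly through cAMP and protein kinase A. Stimulated cells release RANKL and other cytokines that drive osteoclast formation, and sustained exposure holds back late osteoblast differentiation.

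Expression was read on an Affymetrix array of 45101 probe sets, from which 15711 genes could be tested, each through 1 probe set. Values are log2 of the deposited intensity, so a difference of 1 is a 2-fold change. Correlations between arrays of the same group were 0.997 in the untreated cells and 0.994 to 0.997 in the PTH cells, and 0.983 to 0.985 between the groups. Whether the replicates are separate cultures is not stated in the labels, and a p-value here speaks for the spread among these arrays and no further, which may be technical. The 3 arrays a group limit the precision, and the median standard error of a difference was 0.10. The 13 stromal markers measured were all above the detection floor on all 6 arrays, as were 9 of 11 macrophage and blood cell markers. The other 2 of the 11, Ptprc and Itgam, defining markers of blood cells, were below it on all 6. A reading above the floor does not by itself show that a gene is expressed. The 3′ minus 5′ difference of the Actb control probe sets was 0.25 ± 0.05 (SD, n = 3) in untreated cells and 0.34 ± 0.01 with PTH, and that of Gapdh was -0.20 ± 0.02 and -0.17 ± 0.02. By a two-sided exact permutation test both gave p = 0.1, the smallest that 3 against 3 arrays allow, and the part of this RNA quality measure in the results was not tested.

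PTH changed a wide range of genes by 6 h, and its largest change was an increase of the cytokine gene Il6. In all, 4605 genes passed an adjusted p of 0.05 (limma, Benjamini-Hochberg over all genes tested), 1789 higher and 2816 lower. That is 29.3% of the genes tested, 11.4% higher and 17.9% lower, and these shares are the background for the gene groups below. Most changes were small, with 3139 of the 4605 under 1.5-fold. Above 2-fold 292 genes rose and 245 fell, above 4-fold 58 rose and 35 fell, and above 8-fold 16 rose and 10 fell. Over all genes tested the median difference was near 0, at -0.0034, with 1% of genes below -1.17 and 1% above 1.36. The 3 PTH arrays lay wholly above the 3 control arrays in 2876 genes and wholly below them in 4017, and 81 of the 4605 called genes had overlapping groups. The share of genes called rose with brightness from 6.55% below a mean level of 6 to 47.6% between 10 and 12, so dim genes were called less often. Against a change of 1.5-fold instead of no change, 569 genes passed, of which 53.4% were higher.

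**Figure D1:**
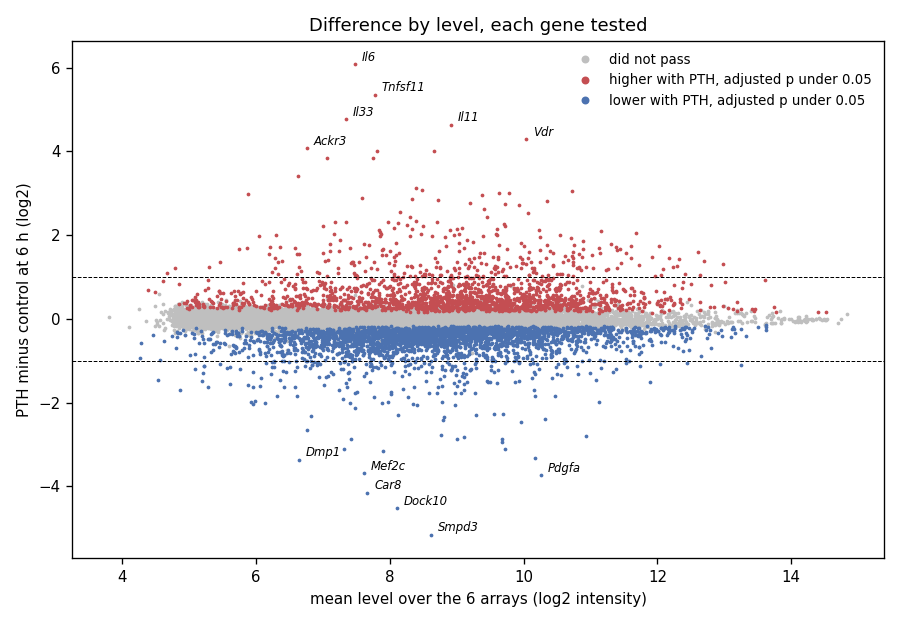
Each point is 1 of the 15711 genes tested, with its mean log2 intensity over the 6 arrays on the horizontal axis and the log2 difference of PTH minus control at 6 h on the vertical axis. Coloured points passed an adjusted p of 0.05 and dashed lines mark 2-fold changes. The largest increases reach past 4 and the largest decreases past -4, while most called genes lie between the dashed lines.

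Il6, an inflammatory cytokine that also promotes osteoclast formation, rose most. It read 4.54, 4.13 and 4.63 on the 3 control arrays and 10.12, 11.01 and 10.41 on the 3 PTH arrays. All control readings lay below the floor of 5 used to call a gene measurable, and every PTH array was well above them. The difference was 6.08 ± 0.37 (SE, n = 3, adjusted p = 2.42e-12 by limma), a 67.7-fold change. Control cells themselves read lower at 6 h than at 1 h, with a difference of -1.49 (6 h minus 1 h, adjusted p = 0.027).

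Tnfsf11 encodes RANKL, the signal that osteoclast precursors need to mature. It read 5.35, 5.30 and 4.66 in control and 10.26, 10.57 and 10.52 with PTH, a difference of 5.35 ± 0.27 (adjusted p = 1.43e-13). Il33, an interleukin-1 family alarmin, read 5.03, 4.82 and 5.02 in control and 9.49, 9.69 and 10.00 with PTH, and Il11, a gp130 cytokine, 6.61, 6.56 and 6.64 and 11.13, 11.37 and 11.21. In each of these genes the groups stood far apart and the arrays within a group lay within 1 unit of each other. Il33 differed by 4.77 ± 0.16 and Il11 by 4.63 ± 0.12, changes of 27.2-fold and 24.8-fold. Vdr, the vitamin D receptor gene, read 7.89, 7.84 and 7.94 in control and 12.18, 12.15 and 12.21 with PTH, and differed by 4.29 ± 0.22.

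The next increases were those of receptors and regulators of signalling. Ackr3, an atypical chemokine receptor that scavenges CXCL12, rose by 4.08 ± 0.24, from control readings of 4.69, 5.40 and 4.08 that straddled the floor. Ramp3, which turns the calcitonin-like receptor into an adrenomedullin receptor, read 6.53, 6.75 and 6.71 in control and 10.43, 10.81 and 10.75 with PTH, a difference of 4.00 ± 0.11. Cited1, a transcriptional coregulator that is known as a PTH target in osteoblasts, differed by 4.00 ± 0.11. Gem, a small GTPase that restrains calcium channels, differed by 3.84 ± 0.20, and Pde4b, a phosphodiesterase that breaks down cAMP, by 3.83 ± 0.17. Prg4, the gene of the joint lubricant lubricin, differed by 3.40 ± 0.18. Shc2, an adaptor of receptor kinases, Csf2rb, the shared beta chain of the IL-3 and GM-CSF receptors, Smim3, Dmbt1, Stac2, Vgf and Syt13 rose by between 2.87 and 3.12. Averaged over all of a gene's probe sets, which brings in dimmer ones, Pde4b came to 1.58 and Shc2 to 1.10, and with 32 added to the intensities before logs, which compresses dim readings, Dmbt1 came to 1.90. The 20 largest increases here, and the 20 largest decreases below, were picked from called genes whose groups do not overlap. That their groups stand apart follows from this rule.

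The largest decrease was that of Smpd3, a neutral sphingomyelinase that mineralizing bone requires. It read 11.17, 11.22 and 11.21 in control and 6.33, 6.45 and 5.35 with PTH, and it fell by 5.16 ± 0.18, to a level 35.7-fold lower. Control arrays agreed closely, and PTH array 3 read lowest. Dock10, a guanine nucleotide exchange factor, read 10.29, 10.47 and 10.36 in control and 6.12, 6.03 and 5.41 with PTH, and Car8, a carbonic anhydrase-related protein, 9.84, 9.67 and 9.72 and 5.43, 5.97 and 5.36. The differences of these genes were -4.52 ± 0.28 and -4.15 ± 0.15. The mean over all probe sets of Car8 was -1.83.

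Pdgfa encodes a platelet-derived growth factor chain and had the smallest p-value of the comparison. It read 12.14, 12.10 and 12.15 in control and 8.24, 8.50 and 8.44 with PTH, and differed by -3.74 ± 0.09 (adjusted p = 1.33e-19). Slc40a1, the iron exporter ferroportin, read 11.90, 11.77 and 11.82 and 8.56, 8.36 and 8.59 and differed by -3.33 ± 0.10. Tbx2, a T-box transcription factor, differed by -3.17 ± 0.21, Nuak1, an AMPK-related kinase, by -2.94 ± 0.09, and Cd200, a surface glycoprotein that restrains myeloid cells, by -2.81 ± 0.08. Ndnf, a secreted neurotrophic factor, differed by -2.81 ± 0.10, Cdh2, the gene of N-cadherin, by -2.77 ± 0.10, and Sgms2, a sphingomyelin synthase, by -2.86 ± 0.19. Btla, Mob3b, Dtx4 and Gask1b differed by between -3.10 and -2.42.

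**Figure D2:**
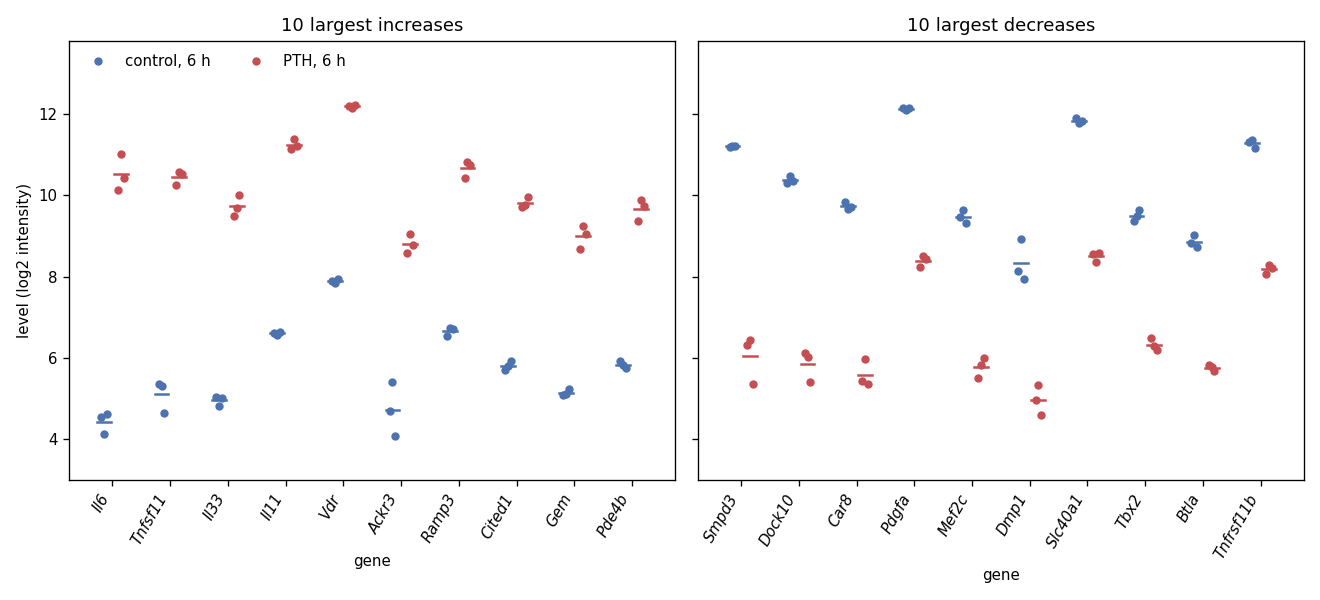
Points give the log2 intensity of each of the 3 control and 3 PTH arrays at 6 h for the 10 largest increases and the 10 largest decreases, and short lines give the group means. The 20 genes were picked from those whose groups do not overlap.

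The genes that regulate osteoclasts moved in both directions. Of 15 tested, 4 rose and 3 fell, with a median of -0.02. Beside Tnfsf11, the risers were Csf1, the gene of M-CSF, which read 9.77, 10.00 and 9.75 in control and 10.41, 10.75 and 10.43 with PTH and rose by 0.69 ± 0.11, and Sfrp1, a secreted Wnt inhibitor that also binds RANKL, which rose by 1.78 ± 0.11. Ccl2, a chemokine for monocytes, rose by 0.43 ± 0.16 (adjusted p = 0.0449), and missed the threshold when 1 array was left out in 4 of 6 cases. Tnfrsf11b encodes osteoprotegerin, the decoy receptor that blocks RANKL. It read 11.31, 11.36 and 11.16 in control and 8.06, 8.27 and 8.20 with PTH. All 3 PTH arrays lay about 3 units under the controls, and the gene fell by 3.10 ± 0.14 (adjusted p = 1.39e-14), or 8.56-fold. Sema3a, a semaphorin that restrains osteoclasts, differed by -0.90 ± 0.15, and Tgfb1 by -0.56 ± 0.08 (-0.36 over all its probe sets). Tnf, Il1b, Il34, Csf2 and Cxcl12 did not pass and lay between -0.09 and 0.06.

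Efnb2 rose, and the receptor of its product did not pass. Efnb2 read 7.39, 7.05 and 6.93 in control and 8.58, 8.72 and 8.65 with PTH, with control array 1 the highest of the controls and still below every PTH array. The difference was 1.53 ± 0.16 (adjusted p = 6.5e-08), a 2.88-fold increase. Ephb4, its main receptor, read 8.75, 8.76 and 8.84 in control and 8.68, 8.75 and 8.74 with PTH, overlapping groups with a difference of -0.06 ± 0.07 (adjusted p = 0.672). Of 16 ephrins and Eph receptors tested, 2 rose and 3 fell. Efna1 rose by 0.35 ± 0.11, though not without control array 2 or PTH array 3, while Efnb1, Ephb3 and Ephb6 differed by -0.36, -0.28 and -0.59. The remaining 11, each by its brightest probe set, lay between -0.26 and 0.13 and did not pass. In a limma fit of all probe sets, a dimmer one of Efna1 rose by 0.53 ± 0.11 (adjusted p = 0.00051). Among the 11, dimmer probe sets of Efna5 and Epha4 rose by 0.29 each (adjusted p = 0.016 and 0.026), that of Epha4 near the floor.

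The receptor's own gene fell. Pth1r read 11.29, 11.39 and 11.38 in control and 10.33, 10.10 and 10.29 with PTH, with no overlap, and fell by 1.12 ± 0.09 (adjusted p = 1.21e-09). Of 21 genes of G protein-coupled receptors and their partners tested, 7 rose and 5 fell. After Ramp3, the largest increases were those of S1pr1, a sphingosine 1-phosphate receptor, by 1.74 ± 0.10, and Adm, the peptide adrenomedullin, by 1.35 ± 0.19. The prostaglandin E2 receptor gene Ptger4 rose by 1.07 ± 0.14, while Ramp1 differed by -1.17 ± 0.13 (-0.40 over all its probe sets).

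Feedback genes of cAMP signalling rose more often than they fell. Of 31 tested, 12 rose and 2 fell, against background shares of 11.4% and 17.9%, and 17 did not pass. Rgs2, which speeds the shutdown of G protein signals, read 8.45, 8.46 and 7.96 in control and 10.98, 11.63 and 11.26 with PTH, with control array 3 lowest, and rose by 3.00 ± 0.14. Pde4d, another phosphodiesterase, rose by 2.31 ± 0.16, Arrb1, a beta-arrestin that desensitizes receptors, by 2.30 ± 0.15, and Nfil3, a transcriptional repressor, by 2.01 ± 0.15. Crem, whose short form represses cAMP-responsive genes, read 6.19, 6.33 and 6.07 in control and 8.29, 8.74 and 8.47 with PTH, a difference of 2.30 ± 0.21 with no overlap. Nr4a2, an orphan nuclear receptor, rose by 1.47 ± 0.24. Atf3, Crtc1, Crtc3 and Pde4a lay between -0.03 and -0.01 and did not pass. Averaged over all probe sets, Pde4d came to 1.15 and Nr4a2 to 0.78, and Nr4a3, at -0.03 by its brightest probe set, turned to 0.50 and passed (adjusted p = 0.00031).

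A cAMP response element is the DNA sequence bound by CREB family factors, and its letters are TGACGTCA, the same on both strands. Promoter sequence from RefSeq on build GRCm38.p6, 300 bases running from 250 before the start site to 50 after it, was matched to 12496 of the 15711 genes. The full element was found in 3.16% of all matched genes, in 4.96% of the 222 matched genes that rose over 2-fold, and in 3.26% of the 184 that fell over 2-fold. Of the 20 largest increases, 11 had a promoter and 0 of these held it. It was found in 1 of the 39 matched genes that rose over 4-fold (2.56%). Of the cAMP feedback genes that rose, 9 had a promoter and 1 of these held it. Of 526 genes that fall under the naming rule and had a promoter, 17 held it, among them 4 that rose over 2-fold. The 250 bases before the start site of these 4 are printed to show where it lies, with Il6 beside them as the largest increase. Il6 was picked for this after its values were seen. Capitals mark the full element, its core TGACG on either strand, and the AP-1 site TGANTCA, and all else is in lower case.
Maff (chr15:79347270-79347519, + strand): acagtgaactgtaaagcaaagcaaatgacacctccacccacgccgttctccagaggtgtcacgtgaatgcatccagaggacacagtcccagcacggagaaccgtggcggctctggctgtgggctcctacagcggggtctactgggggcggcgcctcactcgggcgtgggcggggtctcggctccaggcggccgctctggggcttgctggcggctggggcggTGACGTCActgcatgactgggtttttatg
Errfi1 (chr4:150854820-150855069, + strand): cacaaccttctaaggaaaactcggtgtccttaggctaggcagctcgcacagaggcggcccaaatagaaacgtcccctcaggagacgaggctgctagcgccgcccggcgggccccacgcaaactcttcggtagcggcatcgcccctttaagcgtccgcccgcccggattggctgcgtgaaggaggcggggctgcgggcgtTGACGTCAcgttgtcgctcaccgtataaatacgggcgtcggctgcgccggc
Dusp1 (chr17:26508473-26508722, - strand): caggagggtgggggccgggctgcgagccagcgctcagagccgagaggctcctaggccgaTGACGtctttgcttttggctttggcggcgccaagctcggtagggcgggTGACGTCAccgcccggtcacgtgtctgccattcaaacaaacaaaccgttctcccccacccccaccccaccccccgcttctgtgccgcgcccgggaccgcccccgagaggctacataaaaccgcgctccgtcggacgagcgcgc
Ppp1r15a (chr7:45526269-45526518, - strand): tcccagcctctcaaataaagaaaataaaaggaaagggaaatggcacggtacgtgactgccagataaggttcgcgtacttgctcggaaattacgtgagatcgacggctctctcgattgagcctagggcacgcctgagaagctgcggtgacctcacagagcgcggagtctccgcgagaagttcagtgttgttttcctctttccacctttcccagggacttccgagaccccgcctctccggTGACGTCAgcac
Il6 (chr5:30012864-30013113, + strand): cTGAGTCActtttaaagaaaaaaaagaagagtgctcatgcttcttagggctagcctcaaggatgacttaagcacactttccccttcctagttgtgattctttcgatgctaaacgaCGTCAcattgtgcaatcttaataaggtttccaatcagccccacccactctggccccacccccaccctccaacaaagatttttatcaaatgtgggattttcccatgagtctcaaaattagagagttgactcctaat
The full element began 29 bases before the start site in Maff, 51 in Errfi1, 143 in Dusp1 and 12 in Ppp1r15a. Il6 held the core on the other strand, starting 135 bases before its start site, and an AP-1 site at 249. The core, which was searched for after the data were seen and lies within every full element, occurred in 31.8% of all matched genes and in 34.7% of those that rose over 2-fold, but in 28.8% and 28.4% by the first promoter of each gene alone. The AP-1 site occurred in 6.91% of matched genes, in 10.4% of those that rose and 9.24% of those that fell over 2-fold, and the RUNX site AACCACA in 4.79%, 4.96% and 4.89%. Genes can have several promoters, 1.27 each over all matched genes, 1.32 in those that rose and 1.37 in those that fell over 2-fold. By the first promoter alone, the shares were 2.88%, 4.05% and 3.26% for the full element, 5.65%, 8.11% and 5.98% for AP-1, and 3.94%, 2.70% and 3.80% for RUNX. Over all 32851 promoters of the table, the shares were 1.79% for the full element, 20.8% for the core, 7.81% for AP-1 and 5.27% for RUNX, with both strands searched each time. A match describes letters and not binding.

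Maff, a small MAF transcription factor, read 6.90, 6.92 and 6.63 in control and 8.78, 9.06 and 8.84 with PTH. Errfi1, an inhibitor of the EGF receptor, read 10.26, 10.46 and 10.15 and 11.87, 12.00 and 12.07, and Dusp1, a MAP kinase phosphatase, 8.56, 8.75 and 8.39 and 9.85, 10.40 and 10.14. Each rose without overlap, by 2.08, 1.69 and 1.56. Another 13 named genes held the full element: Ltbp1 and Cycs rose by 0.98 and 0.40, and 11 did not pass, such as S1pr2 at 0.17 and Jak1 at 0.14.

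Cytokines that signal through gp130, and their receptors and inhibitors, mostly rose. Of 19 tested, 12 rose and 1 fell, with a median of 0.73 against near 0 over all genes. After Il6 and Il11, Bcl3, a nuclear coregulator of NF-kappa B, rose by 2.56 ± 0.11, Socs3, the feedback inhibitor of gp130 signalling, by 2.52 ± 0.21, and Osmr, the oncostatin M receptor, by 2.12 ± 0.10. The lone decrease was that of Lifr, the receptor of leukaemia inhibitory factor, which read 11.45, 11.57 and 11.52 in control and 8.97, 9.16 and 9.26 with PTH. It fell by 2.39 ± 0.11, so the receptor genes Osmr and Lifr, which both pair with gp130, moved in opposite directions. The mean over all probe sets of Lifr was -1.28. Il6ra, the receptor that binds IL-6 itself, differed by 0.05 ± 0.10 and did not pass.

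Of 23 genes of the interleukin-1 family and NF-kappa B signalling, 17 rose and 1 fell, with a median of 0.45. Cebpd and Cebpb, transcription factors of the acute phase response, rose by 2.15 ± 0.17 and 2.10 ± 0.11. Nfkbiz, an inducible nuclear partner of NF-kappa B, rose by 2.12 ± 0.18, Il1r1, the interleukin-1 receptor, by 1.13 ± 0.09, and Tnfaip3, the feedback inhibitor A20, by 0.90 ± 0.10. Over all probe sets the values were 1.12 in Cebpd, 0.60 in Il1r1 and 0.58 in Tnfaip3. Nfkbia, which encodes the inhibitor IkappaB alpha, differed by -0.12 ± 0.08 and did not pass. Of 17 chemokines, each read by its brightest probe set, 6 rose and 0 fell, and Cxcl5, a chemokine for neutrophils, rose by 1.52 ± 0.26. Cxcl1, another neutrophil chemokine, differed by 0.23 ± 0.13 and did not pass (adjusted p = 0.193), while its other probe sets rose by 1.93 and 0.90. The list count ran from 2 to 6 over the alternatives. Among 10 prostaglandin genes, 3 rose and 3 fell. Ptgs2, the inducible cyclooxygenase, rose by 1.61 ± 0.21 and Ptges, which makes prostaglandin E2, by 1.24 ± 0.08. Hpgd, which degrades prostaglandins, differed by -1.20 ± 0.15, Abcc4, which exports them, by -1.03 ± 0.08, and Ptgis, the prostacyclin synthase, by -1 ± 0.14. Hpgd came to -0.62 with 32 added before logs and to -0.68 over all its probe sets.

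**Figure D3:**
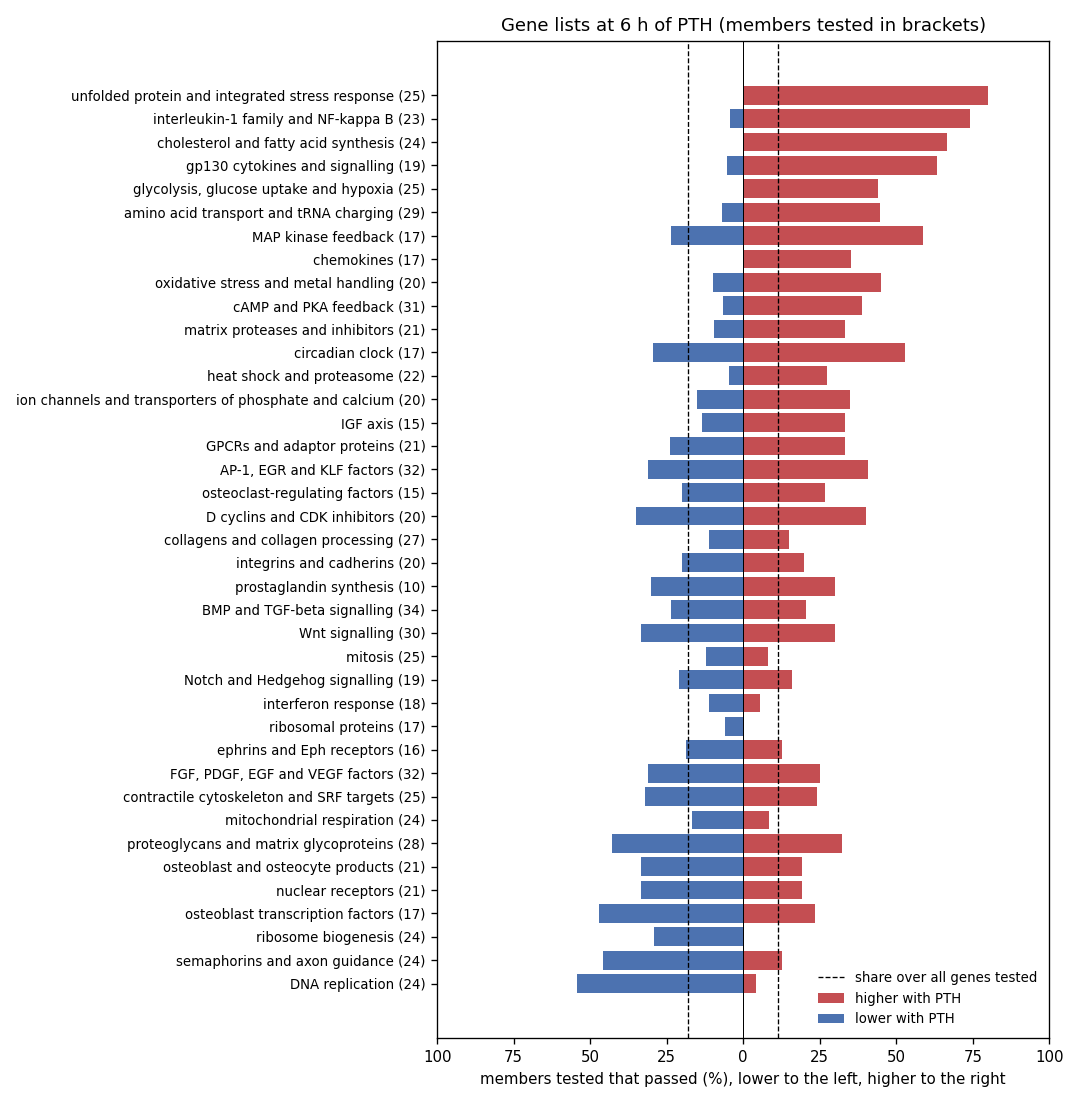
Bars give the percentage of tested members of each of 39 gene lists that rose (right) or fell (left) at 6 h with PTH, and dashed lines give the same shares over all genes tested, 11.4% higher and 17.9% lower. The unfolded protein, interleukin-1 and NF-kappa B, cholesterol and gp130 lists have the longest bars to the right, and the DNA replication and osteoblast transcription factor lists are among the longest to the left.

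Osteoblast transcription factors fell more often than they rose. Of 17 tested, 8 fell and 4 rose, with a median of -0.24. Mef2c, a factor that acts at the bone enhancer of the sclerostin gene, read 9.45, 9.63 and 9.32 in control and 5.52, 5.82 and 6.00 with PTH. The PTH arrays spread over about 0.5 units, all far below the controls, and the gene fell by 3.69 ± 0.28 (adjusted p = 1.23e-10). Sp7, the gene of osterix, which osteoblasts need to form, read 11.08, 11.12 and 11.09 and 9.30, 9.13 and 9.30 and fell by 1.85 ± 0.11. The homeobox genes Dlx5 and Dlx3 differed by -1.38 ± 0.10 and -1.11 ± 0.12, Mef2a by -1.08 ± 0.13, and Zfp521, a zinc finger regulator of osteoblast maturation, by -1.96 ± 0.13. Zfp521 came to -1.29 with 32 added and to -1.09 over all its probe sets. Msx1, Msx2, Osr2, Hey1 and Dlx6 did not pass and lay between -0.24 and 0.22. Runx2, Bglap and Spp1 were not analysed here.

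Among the products of osteoblasts and osteocytes, several genes of mineralizing cells fell. Of 21 tested, 7 fell and 4 rose, with a median of -0.13. Dmp1, an osteocyte matrix protein, read 8.14, 8.91 and 7.94 in control and 4.96, 5.34 and 4.59 with PTH, with control array 2 highest, and fell by 3.36 ± 0.34. Panx3, a channel protein of mineralizing cells, read 11.15, 11.16 and 11.01 and 8.02, 8.33 and 8.39 and fell by 2.86 ± 0.16, and Ifitm5, a bone-restricted membrane protein, fell by 1.63 ± 0.16. Over all its probe sets Panx3 came to -1.85. Ibsp, the gene of bone sialoprotein, fell by 0.90 ± 0.17 (adjusted p = 0.000163). Pdpn, an early osteocyte glycoprotein, rose by 1.44 ± 0.10, and Mgp, an inhibitor of mineralization, read 11.92, 12.03 and 12.04 and 13.34, 13.39 and 13.43 and rose by 1.39 ± 0.09. Col1a1, the main bone collagen, differed by -0.10 ± 0.07 (adjusted p = 0.35), Alpl, the alkaline phosphatase gene, by -0.17 ± 0.08 (adjusted p = 0.152), and Sost, the gene of sclerostin, by 0.14 ± 0.17 at readings near the floor. These last 3 did not pass, which does not show that they stayed level. A dimmer probe set of Col1a1 differed by -0.28 ± 0.09 and passed in a limma fit of all probe sets (adjusted p = 0.022). In bulk samples such as these, fewer cells of a type and less RNA per cell cannot be told apart.

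Collagen genes as a list stood near the background, with 4 of 27 rising and 3 falling. Plod2, a lysyl hydroxylase that cross-links collagen, rose by 1.43 ± 0.14, Col16a1 by 0.83 ± 0.08 and P4ha2, a prolyl hydroxylase, by 0.67 ± 0.14. Col8a1 differed by -0.84 ± 0.13 and Loxl1 by -0.43 ± 0.08, while Col1a2, Col3a1, Col6a1 and Col6a3 lay between -0.01 and 0.07. Proteoglycans and matrix glycoproteins moved more, with 9 of 28 rising and 12 falling. Vcan, the large proteoglycan versican, read 8.71, 8.60 and 8.42 in control and 11.06, 11.48 and 11.34 with PTH and rose by 2.72 ± 0.18. Csgalnact1, which starts chondroitin sulphate chains, rose by 2.76 ± 0.12, Has2, a hyaluronan synthase, by 1.83 ± 0.26, and the syndecan gene Sdc4 by 1.93 ± 0.17. Over all probe sets Vcan came to 1.06 and Sdc4 to 0.93. Thbs1, the gene of thrombospondin 1, read 12.72, 12.62 and 12.59 and 10.93, 11.34 and 11.13 and fell by 1.51 ± 0.10. Fn1, the fibronectin gene, differed by -0.04 ± 0.06 and did not pass.

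Among 21 matrix proteases and inhibitors, 7 rose and 2 fell. Plaur, the urokinase receptor, read 7.99, 8.36 and 7.96 in control and 10.54, 10.84 and 10.78 with PTH and rose by 2.61 ± 0.15. The aggrecan-degrading proteases Adamts1 and Adamts4 rose by 1.47 ± 0.15 and 1.12 ± 0.11, Timp1, an inhibitor of metalloproteinases, by 1.59 ± 0.09, and Mmp13, the main collagenase of bone, by 0.81 ± 0.10. Mmp14 and Mmp2 differed by -0.01 and 0.13 and did not pass.

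Wnt signalling genes moved both ways, with 9 of 30 rising and 10 falling. Wnt4, a Wnt ligand, read 8.07, 7.97 and 8.05 in control and 10.11, 9.96 and 10.08 with PTH and rose by 2.02 ± 0.13, and the secreted inhibitors Sfrp1 and Sfrp4 rose by 1.78 and 1.46. Ccn4, a Wnt target also called WISP1, fell by 1.47 ± 0.08, and the receptor gene Fzd8 by 1.08 ± 0.13. Wnt5a, Dkk1 and Lrp6 did not pass and lay between -0.11 and -0.02. Of 34 BMP and TGF-beta genes, 7 rose and 8 fell. Tgfbr1, the type I TGF-beta receptor, rose by 1.87 ± 0.15, Inhba, a subunit of activin A, by 1.20 ± 0.20, and Smad7, an inhibitory Smad, by 0.98 ± 0.10. Fst, the activin-binding protein follistatin, differed by -0.92 ± 0.12 and Bambi, a decoy receptor, by -0.83 ± 0.12. Over all probe sets Fzd8 came to -0.60 and Inhba to 0.58.

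Of 15 genes of the IGF axis, each read by its brightest probe set, 5 rose and 2 fell. Igfbp5, another IGF-binding protein, did not pass by that probe set, at 0.06. A dimmer probe set of Igfbp5 rose by 2.14 ± 0.17 and passed in a limma fit of all probe sets (adjusted p = 4.5e-10). Igfbp3, an IGF-binding protein, rose by 1.09 ± 0.13 from control readings of 4.07, 4.18 and 4.15, below the floor, or by 0.48 with 32 added before logs, and Irs1, the main insulin receptor substrate of osteoblasts, differed by -1.05 ± 0.08. Igf1 read 9.49, 9.32 and 9.46 in control and 10.19, 9.93 and 10.48 with PTH, without overlap, yet missed the threshold at 0.78 ± 0.30 (adjusted p = 0.0514). It passed in 10 of the alternatives, with an adjusted p of 0.00136 in a fit of these 6 arrays alone. Without PTHrP array 3 of 1 h, which enters only the spread, the adjusted p was 0.00095. Of 32 other growth factors and receptors, 8 rose and 10 fell. Hbegf, an EGF receptor ligand, rose by 2.15 ± 0.13, Vegfa by 1.67 ± 0.11 and Nrg1 by 1.61 ± 0.13. Vegfc, a lymphatic growth factor, differed by -1.62 ± 0.23, to a level under the floor, or by -0.88 with 32 added, so Vegfa and Vegfc moved in opposite directions. Pdgfb, the gene of the other classical platelet-derived growth factor chain, differed by 0.16 ± 0.08 and did not pass.

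Feedback inhibitors of MAP kinase signalling mostly rose, with 10 of 17 higher and 4 lower and a median of 0.35. Dusp10 and Dusp2 rose by 1.03 ± 0.10 and 0.87 ± 0.12, beside Dusp1 and Errfi1, while Spry1, a Sprouty protein, fell by 0.85 ± 0.14. Spry2 and Spred2 did not pass, at -0.26 and 0.03. The list of AP-1, EGR and KLF transcription factors went both ways, with 13 of 32 rising and 10 falling. Fosl1, an AP-1 subunit, read 9.06, 9.42 and 9.15 in control and 12.21, 12.26 and 12.27 with PTH and rose by 3.04 ± 0.14, and Fos read 7.86, 7.94 and 7.74 and 9.76, 10.18 and 9.96 and rose by 2.12 ± 0.15. Egr3 read 8.18, 8.09 and 7.97 and 5.31, 5.73 and 5.28 and fell by 2.64 ± 0.15, and Klf2, a flow-responsive factor, read 10.65, 10.74 and 10.69 and 8.25, 8.77 and 8.28 and fell by 2.26 ± 0.14. Over all its probe sets Egr3 came to -1.43. Untreated cells also differed between 6 and 1 h, by -2.88 in Egr3 (adjusted p = 4.31e-12), -1.41 in Fos and -2.75 in Fosb, so the level that PTH was compared with at 6 h was itself lower than at 1 h. Fosb and Egr4 did not pass, at 0.19 and 0.13.

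Guidance molecules fell more often than they rose, with 11 of 24 lower and 3 higher and a median of -0.22. The neuropilin co-receptors moved apart: Nrp1 read 10.22, 10.20 and 10.00 in control and 11.53, 11.71 and 11.59 with PTH, and Nrp2 11.40, 11.40 and 11.38 and 9.40, 9.65 and 9.58. Nrp1 rose by 1.47 ± 0.09 and Nrp2 fell by 1.85 ± 0.08, each without overlap. Sema3d and Sema3c, ligands of neuropilins, differed by -1.45 ± 0.21 and -1.16 ± 0.16, and Slit3 rose by 1.02 ± 0.12. Of 19 Notch and Hedgehog genes, 3 rose and 4 fell. Gli1 and Ptch1, both targets of Hedgehog signalling, differed by -1.37 ± 0.10 and -0.71 ± 0.11, and Lfng, a modifier of Notch, by -0.96 ± 0.15. Jag1 and Notch2 did not pass, at -0.07 and 0.05.

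Of 20 integrins and cadherins, 4 rose and 4 fell, and after Cdh2 the largest decrease was that of Itga10, a collagen-binding integrin, at -0.97 ± 0.09. Cdh11, the other main cadherin of osteoblasts, differed by -0.09 ± 0.19 and did not pass. Of 25 contractile and SRF-dependent genes, 6 rose and 8 fell. Mylk, the myosin light chain kinase, differed by -1.07 ± 0.10, Rnd3, a small GTPase of the cytoskeleton, by -0.997 ± 0.09, and Ankrd1 rose by 1.05 ± 0.14. Actb and Actg1 differed by -0.02 and 0.04 and did not pass.

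Genes of the unfolded protein response rose in a larger share than those of the other lists, at 80% of the members tested. The response is switched on when proteins misfold in the endoplasmic reticulum, and its integrated stress arm acts through ATF4. Of 25 tested, 20 rose, 0 fell and 5 did not pass, with a median of 0.82. Trib3, a pseudokinase induced by ATF4, read 8.37, 8.40 and 8.45 in control and 10.11, 10.75 and 10.30 with PTH and rose by 1.98 ± 0.35. Ddit3, the gene of CHOP, read 10.55, 10.89 and 10.74 and 12.34, 12.75 and 12.34 and rose by 1.75 ± 0.18. Ero1a, an oxidase that helps form disulphide bonds, rose by 1.57 ± 0.15, and Creld2, a chaperone-like protein, by 1.47 ± 0.29. Ppp1r15a, whose product GADD34 restarts translation after stress, read 8.51, 8.61 and 8.49 and 9.82, 10.18 and 9.94 and rose by 1.45 ± 0.16. Control groups were tight in these genes, and PTH array 2 read highest in Trib3. Of the rest, Asns, Pdia3, Pdia4, Canx and Atf6 did not pass, between -0.18 and 0.44. Atf6 was at -0.18 by its brightest probe set, while its other probe sets rose by 0.42 and 0.31. Those passed in a limma fit of all probe sets (adjusted p = 0.047 and 0.017). The ATF4 composite element, TGATGNAA, was found in 3 of the 19 risen members with a promoter, against 3.07% of all matched genes and 3.97% of all promoters.

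Transport of amino acids and the charging of tRNAs are common targets of ATF4. Of 29 such genes, 13 rose and 2 fell. Slc7a5 and Slc3a2, which together form a transporter of large amino acids, rose by 1.27 ± 0.17 and 1.24 ± 0.11, and Mthfd2, a mitochondrial folate enzyme, by 1.09 ± 0.19. Psph, of serine synthesis, rose by 0.85 ± 0.22, while the serine synthesis gene Psat1 did not pass, at -0.01 ± 0.16.

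Genes of cholesterol and fatty acid synthesis rose or did not pass. Of 24, 16 rose and 0 fell, with a median of 0.58. Sqle, the squalene epoxidase, read 10.27, 10.13 and 10.38 in control and 11.59, 11.87 and 11.90 with PTH and rose by 1.53 ± 0.11. Pmvk, Idi1 and Fdps, of the mevalonate pathway, rose by 1.30 ± 0.14, 1.19 ± 0.27 and 1.05 ± 0.13, Fdft1, which makes squalene, by 1.21 ± 0.11, and Cyp51 by 0.96 ± 0.13. Over all probe sets Fdft1 came to 0.63 and Fdps to 0.59. The fatty acid synthesis genes Fasn, Acaca, Scd1 and Elovl6 did not pass, between -0.06 and 0.30. Dhcr7, the enzyme of the last step to cholesterol, also did not pass, at -0.13 ± 0.12.

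**Figure D4:**
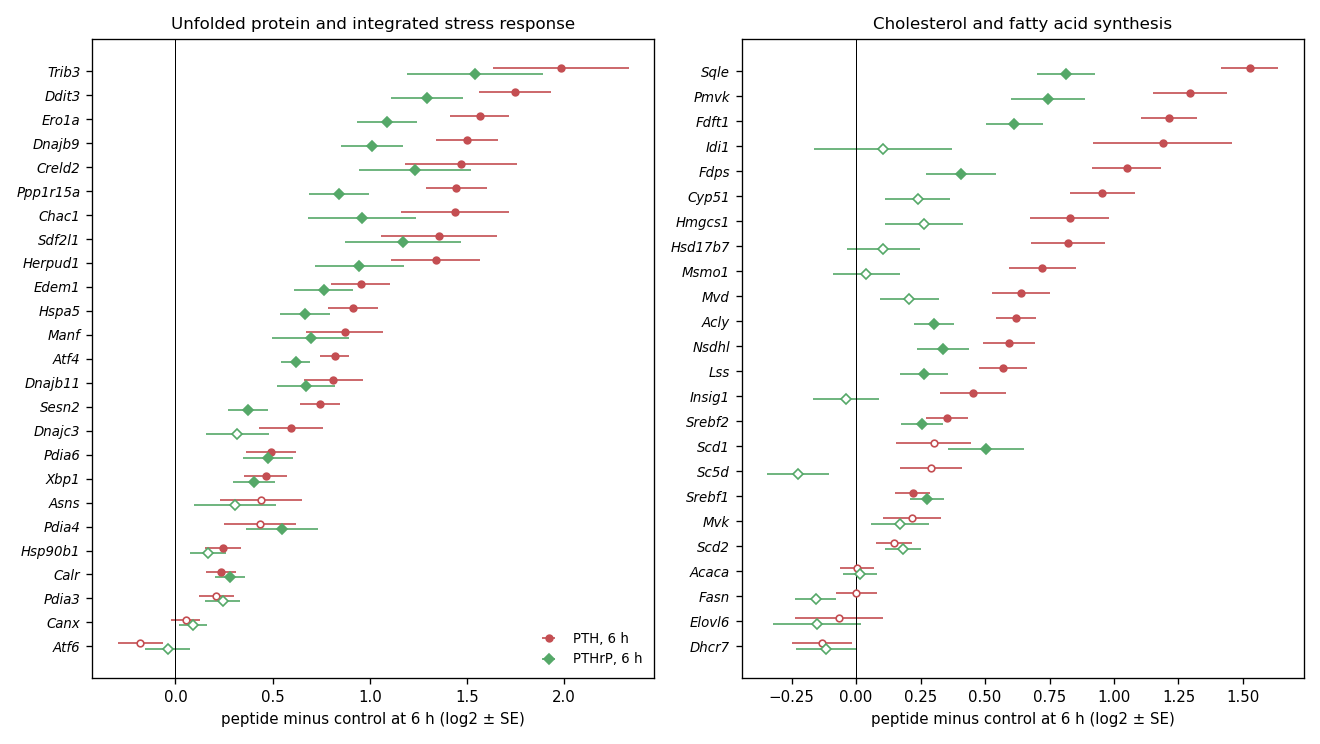
Points give the log2 difference from control at 6 h, with bars of 1 SE, for tested members of the unfolded protein response and of cholesterol and fatty acid synthesis, with PTH and with PTHrP, and filled points passed an adjusted p of 0.05. Of the 25 unfolded protein genes, each by its brightest probe set, only Atf6 lies left of 0 with PTH. In Sqle, Pmvk, Fdft1, Idi1, Fdps and Cyp51 the PTHrP points lie nearer 0 than those of PTH.

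Glucose uptake, glycolysis and hypoxia genes rose or did not pass, with 11 of 25 higher and 0 lower. Slc2a1, the basal glucose transporter, read 10.50, 10.58 and 10.51 in control and 12.16, 12.20 and 12.36 with PTH and rose by 1.71 ± 0.21. Hk2, which traps glucose in the cell, rose by 1.24 ± 0.11, Hif1a, the hypoxia factor, by 1.02 ± 0.11, and Ndrg1 by 1.26 ± 0.13. The glycolytic enzymes Ldha, Pkm, Aldoa, Pgam1, Tpi1 and Pgk1 did not pass and lay between 0.09 and 0.21. Of 20 genes of oxidative stress and metal handling, 9 rose and 2 fell. The metallothionein genes Mt2 and Mt1 rose by 1.77 ± 0.18 and 1.20 ± 0.11, Slc39a14, a zinc and iron importer, by 1.35 ± 0.10, and Srxn1, of the antioxidant response, by 1.75 ± 0.10. Slc40a1, the iron exporter, fell by 3.33 ± 0.10, and Nqo1, another antioxidant gene, differed by -0.27 ± 0.13 and did not pass.

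DNA replication genes fell while most mitotic genes did not pass. Of 24 replication genes, 13 fell and 1 rose, with a median of -0.27. Mcm6 and Mcm2, of the replicative helicase, differed by -0.89 ± 0.13 and -0.71 ± 0.09, Pola1, a DNA polymerase, by -0.80 ± 0.20, and Tk1, a thymidine kinase, by -0.68 ± 0.10. Over all its probe sets Pola1 came to -0.44. Pcna and Ccne1 did not pass, at -0.09 and -0.04. Of 25 mitotic genes, 2 rose and 3 fell, and Mki67, Cdk1 and Plk1 lay at -0.16, 0.09 and 0.05 without passing. Among 20 D cyclins and inhibitors, 8 rose and 7 fell, with Ccng2, a growth arrest cyclin, up by 1.24 ± 0.12 and Ccnd1, the gene of cyclin D1, at -0.80 ± 0.08.

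Genes of the interferon response were uneven between arrays. Of 18 tested, 1 rose and 2 fell, with a median of -0.35, and over the alternatives between 0 and 12 passed. Oasl2, an antiviral protein, read 7.34, 8.03 and 8.30 in control and 7.69, 5.49 and 6.92 with PTH, so the groups overlapped and PTH array 2 read lowest. It passed nonetheless, at -1.19 ± 0.40 (adjusted p = 0.0278), and came to -0.58 (adjusted p = 0.28) without PTH array 2. Irgm1, an immunity GTPase named through the comparison with PTHrP, read 10.34, 10.39 and 10.60 and 8.42, 7.82 and 8.17 and differed by -2.30 ± 0.12 without overlap. Xaf1 and Ifi47, both interferon-induced, differed by -1.50 ± 0.26 and -1.76 ± 0.15, and in both PTH array 2 was again lowest. Over all its probe sets Xaf1 came to -0.83. Mx1, Rsad2 and Irf7 did not pass, at -0.18, -0.09 and -0.06. Ifit1 and Ifit3 lay lower, at -0.84 ± 0.39 and -0.83 ± 0.43, and did not pass either.

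Markers of other cell types passed in 6 of 46 cases, and those of stromal and osteoblast cells were measured beside them. The summed intensity of the 13 stromal markers ran from 90836 to 93172 in control and from 85388 to 88929 with PTH, and that of 7 osteoblast lineage markers from 67257 to 69482 and from 57826 to 58283. The osteoblast list holds Sp7, Dlx5, Pth1r and Ibsp, which fell as given above. Above the floor on all 6 arrays were 10 of 11 adipocyte, 11 of 13 chondrocyte, 8 of 12 muscle and 6 of 10 endothelial markers. Adipocyte markers summed to 13537 to 17190 in control and 14709 to 17912 with PTH, and muscle markers to 938 to 955 and 925 to 955, so both ranges overlapped. Macrophage and blood cell markers summed to 1027 to 1043 and 1001 to 1143, and endothelial markers to 680 to 699 and 645 to 723, again with overlap. Chondrocyte markers summed to 2412 to 2562 and 2064 to 2256, without overlap. On these 5 lists, Sox9 and Cd68 rose by 0.25 and 0.46, and Cebpa, Zfp423, Ihh and Col11a2 fell, with differences of -0.57, -0.55, -0.83 and -0.60. With 1 array left out at a time the call was lost in 5 of 6 cases for Sox9 and in 2 of 6 for Cd68. The part of these markers in the results above was not tested.

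PTHrP at 6 h, at 20 nM of the longer peptide, moved many of the large changes less far than PTH. It was set directly against PTH, and 1197 genes passed, 7.62% of those tested, with 699 higher and 498 lower. Both peptides share the control arrays, so their differences from control are given side by side only. Of the 292 genes that rose over 2-fold with PTH, PTHrP lay significantly nearer control in 168 and further from it in 2, and of the 245 that fell, nearer in 115 and further in 0. These genes were chosen for a large PTH effect, which favours a smaller value elsewhere. The median differences of the 292 were 1.43 with PTH and 1.00 with PTHrP, and those of the 245 were -1.28 and -0.996.

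Among single genes, Il6 stood at 3.36 ± 0.37 with PTHrP against 6.08 ± 0.37 with PTH, and the direct difference was -2.72 (adjusted p = 4.49e-05). Prg4 stood at 1.16 with PTHrP and 3.40 with PTH, Gem at 1.73 and 3.84, and Il33 at 2.97 and 4.77. Inhba was at -0.29 with PTHrP and 1.20 with PTH, a direct difference of -1.49 ± 0.20. Pth1r stood at -0.39 ± 0.09 with PTHrP against -1.12 ± 0.09 with PTH, a direct difference of 0.72 (adjusted p = 3.41e-05). In the other direction, Slc40a1 and Irgm1 were lower with PTH, by a direct difference of 1.25 and 1.16. Oasl2, Xaf1, Rtp4 and Ifi47 differed directly by 1.36, 1.34, 1.10 and 1.00. Other genes did not differ significantly between the peptides. Tnfrsf11b stood at -2.97 and -3.10, a direct difference of 0.13 ± 0.14, Efnb2 at 1.48 and 1.53, a direct difference of -0.05 ± 0.16, and Shc2 at 3.10 and 3.12, a direct difference of -0.02 ± 0.14. Among the lists, PTHrP differed from PTH in 14 of 24 cholesterol and fatty acid genes and in 11 of 24 ribosome biogenesis genes, against 7.62% of all genes. In Sqle the value was 0.81 with PTHrP against 1.53, and in Idi1 0.10 against 1.19. In the unfolded protein response, 2 of 25 differed. The count of 1197 fell to 629 without PTH array 2 and to 711 without PTH array 3. Without PTH array 1 it was 1035, with 498 higher and 537 lower, so which direction was more frequent depended on that array.

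Fewer genes differed at 1 h and at 24 h than at 6 h. At 1 h 273 genes, or 1.74%, differed between PTH and control, and at 24 h 1830, or 11.6%. The change of the PTH effect was tested itself: 2914 genes, or 18.5%, changed between 1 and 6 h, and 3211, or 20.4%, between 6 and 24 h. Of the 292 genes that rose over 2-fold at 6 h, 84 had also passed in that direction at 1 h and 112 passed in it at 24 h. Of the 245 that fell, 8 had passed in that direction at 1 h and 133 did so at 24 h. The effect shrank from 6 to 24 h, by the test of the change, in 262 of the 292 and 194 of the 245. Genes chosen for a large effect at 6 h will tend to have a smaller one at other times.

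Single genes followed several courses. Il33 and Ramp3 differed by 0.21 and 0.34 at 1 h and by 0.39 and 0.11 at 24 h, and none of these passed, so their increase passed at 6 h alone. Cited1 was at -0.01 and 0.05. Rgs2 and Fos were further up at 1 h, at 3.80 ± 0.14 and 3.63 ± 0.15, and Nr4a2 was at 4.42 ± 0.24. Il6 was already at 5.27 ± 0.37 at 1 h and its change to 6 h was 0.81 ± 0.52 (adjusted p = 0.327), while by 24 h it was at 0.60 ± 0.37 and did not pass. Vdr went from 2.51 at 1 h to 4.29 at 6 h and -0.25 at 24 h. Efnb2 was up at all 3 times, at 1.89 ± 0.16, 1.53 ± 0.16 and 1.31 ± 0.16.

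None of the 20 largest decreases passed at 1 h, where they lay between -0.34 and 0.32. Smpd3 differed by -0.07 at 1 h, -5.16 at 6 h and -2.89 at 24 h, and its changes between the times were -5.08 ± 0.26 and 2.27 ± 0.26. Mef2c ran 0.07, -3.69 and -2.17, and Pdgfa -0.13, -3.74 and -1.66. Dmp1 was at -4.61 ± 0.34 by 24 h. Prg4 was at -0.10 at 1 h and still up at 24 h, at 2.84 ± 0.18. Col1a1 and Alpl, which did not pass at 6 h by the probe set used for each, differed by -0.75 ± 0.07 and -0.97 ± 0.08 at 24 h and passed. Of the 25 mitotic genes, 5 passed at 6 h and 22 at 24 h, and of the 25 unfolded protein genes 20 passed at 6 h, 0 at 1 h and 6 at 24 h. Over all genes tested the shares were 1.74% at 1 h, 29.3% at 6 h and 11.6% at 24 h, so a count of 0 at 1 h says little.

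**Figure D5:**
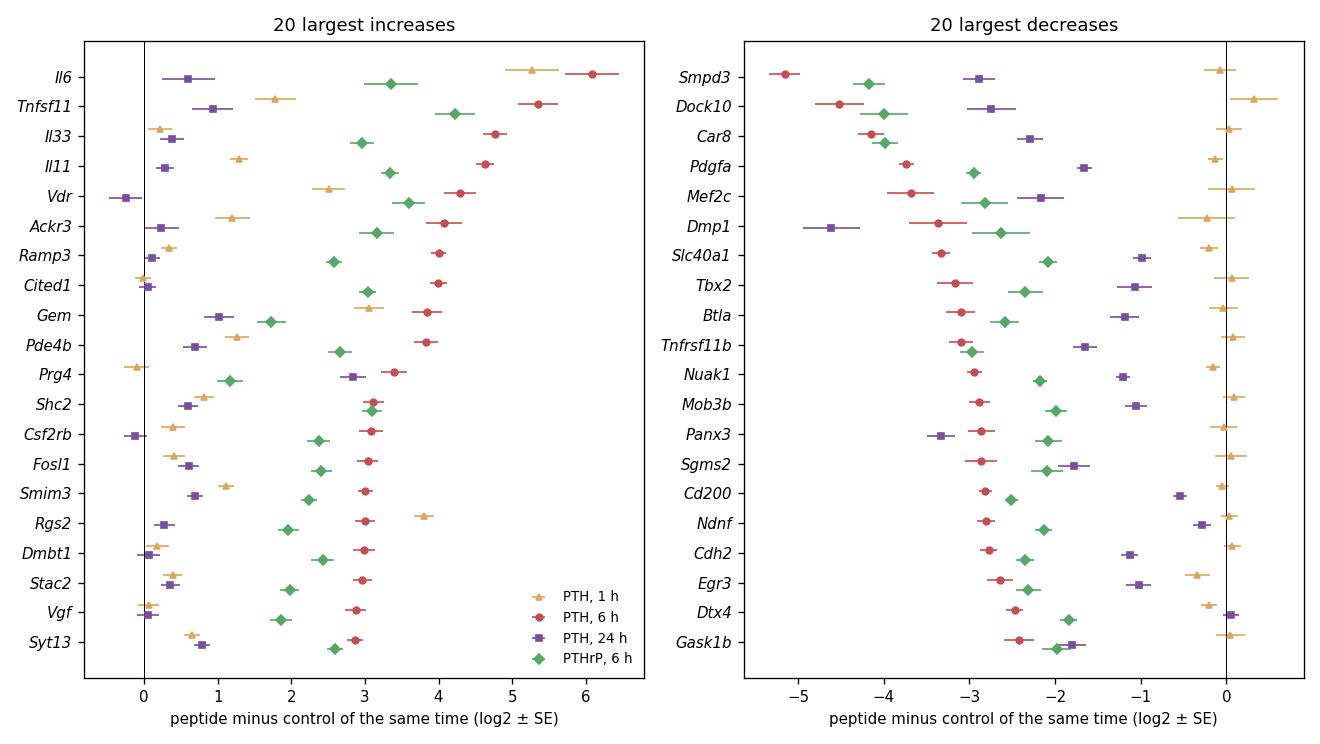
Points give the log2 difference of treated minus control cells, with bars of 1 SE, for the 20 largest increases and 20 largest decreases with PTH at 6 h, shown for PTH at 1, 6 and 24 h and for PTHrP at 6 h. Increases at 1 h are far from 0 in a few genes such as Il6 and Rgs2, while the 20 decreases lie between -0.34 in Egr3 and 0.32 in Dock10 at 1 h.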

How the data were processed

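Total RNA of KUSA4b10 cells was hybridised to 27 arrays, 3 for each of 9 groups, and this account rests on the 6 arrays of PTH and control at 6 h. The authors deposited 1 table of linear intensity values, normalized by RMA per the submitters' processing notes, with no version given. Per the series' design text the normalization was redone for the deposit, after publication, so values can differ from those published. From the deposited intensity values log2 was taken with no offset. Of 45101 probe sets, 34945 had 1 gene symbol, 932 had several, 9211 were not listed and 64 were controls. Each of 18193 genes was represented by the probe set with the highest mean over all arrays, and a gene was tested (15711 in all) if its log2 reading reached 5 on 3 arrays or more.

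limma 3.58.1 in R 4.3.3 fitted the 9 group means over all 27 arrays, so that all groups share 1 estimate of the spread, with 18 residual and 5.54 prior degrees of freedom. P-values were adjusted by Benjamini-Hochberg over all genes tested at a threshold of 0.05. PTHrP against PTH and the change of the PTH effect between times were contrasts of the same fit. RNA quality was compared by an exact permutation test. The procedure was tested on simulated data with 200 changed genes, of which 190 were recovered among 198 calls. The comparison of PTH with control at 6 h called 4605 genes, 3139 of them under 1.5-fold. The smallest change simulated was about 1.5-fold, so the simulation does not speak for calls of such small changes.

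The genes described were the 20 largest increases and decreases whose groups do not overlap, up to 6 members of each of 46 gene lists and the members that did not pass, a fixed set of PTH and osteoblast genes, and the 6 largest each way in the other contrasts. The members and lists were chosen with earlier results of these data known. Promoter sequences came from RefSeq and were matched by gene identifier. Alternatives covered the arrays in the fit, offset, filter, normalization, choice of probe set, array weights, shrinkage and leaving out each array. Replicate numbers are shared between groups in the labels, and whether they pair the arrays was checked by the correlation of deviations from the group means.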

Additional observations from a re-analysis of the deposited data

Results flagged for a closer look

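The PTH effect itself changed between 1 and 6 h in 2914 genes and between 6 and 24 h in 3211, by limma's test of the difference between the effects, and the largest of these are given here as values. From 1 to 6 h the effect moved by 4.55 in Il33, 4.01 in Cited1, 3.66 in Ramp3, 3.56 in Tnfsf11, 3.50 in Prg4 and 3.35 in Il11. In the other direction it moved by -5.08 in Smpd3, -4.84 in Dock10, -4.19 in Car8, -3.75 in Mef2c, -3.60 in Pdgfa and -3.23 in Tbx2.

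From 6 to 24 h it moved by -5.48 in Il6, -4.54 in Vdr, -4.42 in Tnfsf11, -4.38 in Il33, -4.35 in Il11 and -3.94 in Cited1, all of which had risen at 6 h. It moved upward by 2.53 in Ndnf, 2.52 in Dtx4, 2.34 in Slc40a1, 2.27 in Cd200, 2.27 in Smpd3 and 2.27 in Gbp6. The first 5 of these had fallen at 6 h, and Gbp6, an interferon-induced GTPase, stood at -1.52 ± 0.21 at 6 h and 0.75 ± 0.21 at 24 h.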

How the results depend on the processing

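The count of 4605 genes stayed within 1.5 times under every alternative run except the test against a change of 1.5-fold, which called 569. Of the called genes 38.8% were higher. Apart from that test, this share ran from 36.6% without PTH array 3 to 45.3% with cyclic loess, so the background shares depend on the processing too. The count ran from 3830 to 4120 with 1 of the 6 arrays left out. It was 5059 without PTHrP array 3 of 1 h, which enters only the spread, and 4812 in a fit of the 6 arrays alone. Cyclic loess gave 4978 and array weights 6064. For PTHrP against PTH, array weights gave 4540 genes against 1197, leaving out 1 PTH array gave 629 to 1035, and leaving out PTHrP array 3 of 1 h gave 1641. For the change from 6 to 24 h array weights gave 5128 against 3211, and 1 PTH array left out gave 2860 to 2982, and for that from 1 to 6 h it gave 2507 to 2694 against 2914. The 439 called genes of the lists became 392 to 408 with 1 of the 6 arrays left out and 464 without PTHrP array 3 of 1 h. The cause of these shifts was not tested. Nr4a3 changed sign, from -0.03 to 0.50 over all its probe sets. Of 268 genes named, 196 were called, and 189 of these kept call and direction under every alternative that could test them, the exceptions being Ccl2, Cd68, Dnajb1, Efna1, Oasl2, Rtp4 and Sox9, while 15 that did not pass did so under at least 1. The mean over probe sets moved 25 called genes by over 1.5 times and 32 added before logs moved 6.

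The replicate numbers did not pair the arrays: same-numbered arrays at 6 h correlated at -0.27, 0.12 and 0.08, and 1 of 6 correlated best with its own number. A replicate block gave 4403 genes for PTH against control, 932 for PTHrP against PTH, 2650 from 1 to 6 h, 2937 from 6 to 24 h and 424 of the list genes. Signal near the floor of 5 limits genes such as Il6 and Igfbp3, whose control level may lie lower than read. List counts moved over 1.5 times under some alternative for chemokines, proteases, mitochondrial, heat shock, mitosis, interferon and ribosomal protein genes and for 4 marker lists.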

Other observations

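Clock genes changed in most of the cases measured. Of 17 tested, 9 rose and 5 fell, with a median of 0.31. Bhlhe40, a repressor of the clock, read 10.65, 10.98 and 10.73 in control and 11.99, 12.01 and 12.02 with PTH and rose by 1.22 ± 0.10, and Per1, a clock gene that cAMP signalling is known to induce, rose by 1.13 ± 0.10. Rora, an activator of the clock that is also a nuclear receptor, rose by 1.20 ± 0.19, Nr1d2, its repressing counterpart, differed by -0.96 ± 0.17, and Cry1 and Dbp by 0.94 and -0.79. Of 21 nuclear receptor genes, 4 rose and 7 fell. After Vdr and Rora, Ppard rose by 1.00 ± 0.10 (0.58 over all its probe sets), and the retinoid receptors Rara and Rxrb differed by 0.67 and -0.57.

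Ion channels and transporters rose in 7 of 20 cases and fell in 3. Cacna1c, an L-type calcium channel, differed by 1.13 ± 0.09, Trpc1 by 0.83 ± 0.15 and Cav1, the caveolin 1 gene, by -0.80 ± 0.12. Cryab, a small heat shock protein, read 10.27, 10.21 and 10.10 in control and 8.55, 8.75 and 8.81 with PTH and fell by 1.49 ± 0.12, whereas 6 of the 22 heat shock and proteasome genes rose, among them Hsph1 at 0.83 and Dnajb1 at 0.41, whose call was lost without control array 1 or 3. Ribosome biogenesis genes fell in 7 of 24 cases and rose in 0, led by Dkc1 at -0.82 ± 0.09, and 1 of 17 ribosomal protein genes fell. Of 24 genes of mitochondrial respiration, 2 rose and 4 fell, with Ppargc1b, a coactivator of respiration, at -0.76 ± 0.12.

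Several stromal surface markers fell within the stromal list, of which 1 rose and 4 fell: Nt5e, the gene of CD73, read 8.78, 8.76 and 8.84 in control and 7.82, 7.73 and 7.45 with PTH and fell by 1.12 ± 0.10. Its other probe sets differed by -3.17 and 0.05, and the former was brighter in control, at 9.21. Cd44 fell by 0.52 ± 0.08 (-0.32 over all its probe sets). Among genes with several probe sets, the sign was the same over all of them in 2119 of 2648 called genes, and in 297 of 317 called genes above 2-fold.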
